A study of Mus musculus with 10 samples.

Results

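Interferon-stimulated genes were examined as a set of 44 mouse genes, out of 21889 genes on chromosomes 1 to 19, X and Y. Of the 44 genes, 42 were annotated as protein-coding, and Mx1 and Mx2 were annotated as transcribed pseudogenes in the GRCm38.p6 gene table. A p65 peak was assigned to a gene when it overlapped a stretch reaching 3 kb to each side of the first or last base of the gene, called a gene end here. RAW264.7 cells, a wild-type macrophage-like line derived from an Abelson leukaemia virus tumour of a male mouse, received for 12 h the solvent DMSO alone, lipopolysaccharide (LPS, from the outer membrane of bacteria) together with DMSO, or LPS together with skatole, a tryptophan metabolite of gut bacteria. Genomic occupancy of p65, a transactivating NF-κB subunit, was profiled with CUT&Tag (3 libraries per group), in which an antibody directs a transposase to the protein and the released DNA fragments are sequenced. The labels name a p65 antibody and the methods name an antibody to phosphorylated p65. A Blank sample without primary antibody was not analysed here, so heights include any signal obtained without antibody. The libraries came from 1 cell line, and nothing states that they came from separate cultures, so the tests below measure only the spread between these libraries, which may be technical.

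Interferons are secreted after cells sense microbes, and they signal through receptors and JAK kinases to a complex that holds STAT2 and IRF9 and binds interferon-stimulated response elements (ISRE) in the promoters of antiviral genes. Interferon-γ acts through gamma-activated sequences (GAS). In macrophages LPS induces interferon-β through TLR4, and p65 acts with IRF factors at the interferon-β gene and at a number of antiviral genes. The 44 genes cover the transcription factors of this pathway, nucleic acid sensors, the IFIT and ISG15 proteins, the 2-5A synthetases, other antiviral effectors, interferon-inducible GTPases, and enzymes of ADP-ribosylation and ubiquitination.

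The promoters of 6 of these genes are shown because their strongest p65 region overlapped the printed window. They were taken from the transcription factors, the genes that passed the adjusted test and the genes with a peak in all libraries of one group and none of another, in the order of the difference between LPS and DMSO. Irf1 is printed before Irf7, although its log2 difference was smaller (0.22 against 0.34). The difference used for Ifi44, which lacked a peak in some libraries, came from the fit with floors imputed. Each RefSeq window (GRCm38.p6) runs 5′ to 3′ on the strand of the gene, from 250 bases before the annotated start to 50 bases after it. Capitals mark matches, on either strand, to the ISRE core GAAANNGAA, to the GAS letters TTCNNNGAA or to the κB consensus. No matches of different motifs overlapped in these windows.

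Isg20 (chr7:78913515-78913814, plus strand): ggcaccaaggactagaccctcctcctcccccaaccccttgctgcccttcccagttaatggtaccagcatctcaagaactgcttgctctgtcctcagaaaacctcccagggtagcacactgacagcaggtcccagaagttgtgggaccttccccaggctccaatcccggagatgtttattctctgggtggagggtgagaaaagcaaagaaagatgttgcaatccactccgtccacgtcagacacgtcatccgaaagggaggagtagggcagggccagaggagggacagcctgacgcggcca

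Ifi44 (chr3:151749861-151750160, minus strand): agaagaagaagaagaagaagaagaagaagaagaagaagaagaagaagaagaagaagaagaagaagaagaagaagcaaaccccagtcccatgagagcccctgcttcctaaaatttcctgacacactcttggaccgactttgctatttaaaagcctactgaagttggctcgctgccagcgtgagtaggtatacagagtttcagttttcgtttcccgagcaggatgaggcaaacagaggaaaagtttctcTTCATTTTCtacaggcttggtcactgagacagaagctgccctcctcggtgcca

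Ddx58 (chr4:40239776-40240075, minus strand): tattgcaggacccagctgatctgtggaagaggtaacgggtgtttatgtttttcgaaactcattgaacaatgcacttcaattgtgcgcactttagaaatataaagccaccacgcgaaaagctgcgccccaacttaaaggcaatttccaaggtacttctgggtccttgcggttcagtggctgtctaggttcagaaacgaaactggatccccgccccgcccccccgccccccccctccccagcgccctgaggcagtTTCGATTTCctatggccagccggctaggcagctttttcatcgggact

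Stat2 (chr10:128270248-128270547, plus strand): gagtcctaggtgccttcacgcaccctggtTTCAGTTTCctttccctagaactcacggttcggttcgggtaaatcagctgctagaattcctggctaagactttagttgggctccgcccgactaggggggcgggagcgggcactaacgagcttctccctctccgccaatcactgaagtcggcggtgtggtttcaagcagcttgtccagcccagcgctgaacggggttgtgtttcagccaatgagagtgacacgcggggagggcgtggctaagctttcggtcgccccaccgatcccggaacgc

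Irf1 (chr11:53769764-53770063, plus strand): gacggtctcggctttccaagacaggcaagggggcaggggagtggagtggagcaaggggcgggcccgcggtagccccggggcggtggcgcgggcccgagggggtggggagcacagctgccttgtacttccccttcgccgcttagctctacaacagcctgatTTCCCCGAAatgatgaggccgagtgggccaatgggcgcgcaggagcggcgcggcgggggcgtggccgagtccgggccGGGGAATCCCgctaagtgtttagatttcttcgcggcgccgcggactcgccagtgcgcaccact

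Irf7 (chr7:141266375-141266674, minus strand): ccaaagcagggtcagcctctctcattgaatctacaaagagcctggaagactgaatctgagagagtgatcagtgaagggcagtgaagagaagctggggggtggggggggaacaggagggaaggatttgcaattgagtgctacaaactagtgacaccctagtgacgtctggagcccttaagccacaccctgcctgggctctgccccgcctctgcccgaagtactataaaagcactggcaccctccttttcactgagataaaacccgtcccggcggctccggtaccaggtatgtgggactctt

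Peaks lay over these windows to different extents. At Stat2 a peak with its summit inside the window was found in 3 of 3 libraries of each group. At Irf1 a peak lay over the window in 9 of 9 libraries, and the summit was inside it in 3 DMSO libraries, in 3 with LPS and in 2 with LPS + skatole. At Irf7 the window was covered in 1 DMSO library, in 3 with LPS and in 3 with LPS + skatole. At Isg20 it was covered in 2 DMSO libraries, in 3 with LPS and in 3 with LPS + skatole. At Ddx58 it was covered in 0 DMSO libraries, in 3 with LPS and in 3 with LPS + skatole, with the summit outside the window in all 6 libraries that had a peak over it. At Ifi44 it was covered in 0 DMSO libraries, in 2 with LPS and in 1 with LPS + skatole.

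The ISRE core was present in the windows of 21 of the 34 genes with a RefSeq entry, 61.8%, against 8.56% of all 32851 promoter windows of this length and 9.43% of 17492 protein-coding genes with an entry. GAS letters were present for 10 of the 34 genes, 29.4%, against 8.30% of all windows and 8.92% of genes. The κB consensus was present for 5 of the 34 genes, Bst2, Gbp5, Irf1, Oasl1 and Rnf213, or 14.7%, against 4.51% of all windows and 5.53% of genes. These matches describe letters in the window and were not tested. In the printed windows the ISRE core began at -221 bases from the start of Stat2, at -3 bases from that of Ifi44 and at 3 bases from that of Ddx58, where negative is upstream. At Irf1, GAS letters began at -90 and the κB consensus at -13 bases. None of these 3 motifs was found in the windows of Isg20 and Irf7 printed above, and another RefSeq start of Isg20 had GAS letters in its window.

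The depth of the libraries differed between groups. The lists held 37551 to 43450 peaks under DMSO, 55637 to 63498 under LPS and 78136 to 80153 in LPS + skatole libraries. The genome background, in fragments per position, was 1.09 to 1.40 under DMSO, 2.23 to 2.34 under LPS and 2.26 to 2.40 in LPS + skatole libraries. The lowest summit that was called held 8 to 9 fragments in DMSO libraries and 11 fragments in the others, which was 6.44 to 7.34 and 4.59 to 4.94 times the background. A weak site could therefore go uncalled in DMSO at a height that was called in the other groups. Genes with a tall peak could also lack one in a single library of the same group. Oasl1 held 81 and 97 fragments in DMSO replicates 1 and 2 and had no peak in replicate 3. Ifngr1 held 248 and 286 in LPS replicates 2 and 3 and had none in replicate 1. A missing peak thus does not by itself give a low height, and the cause was not tested. Macrophage genes carried peaks as the label of the line implies, with 9 of 10 markers called in each DMSO and LPS library and 9 to 10 in LPS + skatole libraries. The best peaks of these macrophage markers also ranked higher in the treated groups, with a mean of the library medians at percentile 69.9 with DMSO, 79.0 with LPS and 85.1 with LPS + skatole. In the test of peak heights described below, 7 of 9 had a log2 difference above 0 in LPS against DMSO, beside 48.0% of all genes, with a median of 0.29. In LPS + skatole against DMSO 5 of 9 were above 0, beside 45.1% of all genes. In that comparison 1 of the 9, the integrin αM gene Itgam, rose (limma, adjusted p = 0.0299) and 0 fell, beside 0.89% and 0.811% of all genes. Relative to the genome background 5 of 9 were above 0 in LPS against DMSO, beside 16.4% of all genes, with a median of 0.01. The part of the macrophage markers in the results below was not tested. Of 10 markers of other cell types, 0 to 1 had a peak under DMSO, 1 to 4 under LPS and 2 to 6 in LPS + skatole libraries.

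To ask how many interferon-stimulated genes carried p65 under each treatment, genes with a peak at a gene end were counted per library. Among the 44 genes, 31, 31 and 28 had one in DMSO replicates 1 to 3. The corresponding numbers were 37, 35 and 37 with LPS and 37, 40 and 36 with LPS + skatole. As a share this was 68.2% ± 3.94 (SD, n = 3) under DMSO, 82.6% ± 2.62 (SD, n = 3) under LPS and 85.6% ± 4.73 (SD, n = 3) under LPS + skatole. Every LPS and LPS + skatole library lay above every DMSO library, while LPS and LPS + skatole overlapped. Over all genes the share was 50.1% ± 1.28 under DMSO, 55.4% ± 0.941 under LPS and 59.2% ± 0.110 under LPS + skatole (SD, n = 3 each). The difference between LPS and DMSO was 14.4 percentage points for the 44 genes and 5.30 points for all genes, and the difference between LPS + skatole and LPS was 3.03 and 3.79 points. With each list cut to its strongest 37551 peaks, the length of the shortest list, the share of the 44 genes was 65.9% under DMSO, 78.0% under LPS and 72.7% under LPS + skatole, so that LPS + skatole was then below LPS. Over all genes the share was then 49.1% under DMSO, 49.4% under LPS and 48.6% under LPS + skatole. The markers of other cell types also had more peaks in the treated libraries, and their part in the counts was not tested.

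The rank of the best peak of each gene within its own list, by −log10 p, needs no common scale of heights. It does depend on the length of the list and on which genes have a peak. The median percentile of the best peak over the 44 genes with a peak was 69.0, 78.0 and 72.6 with DMSO, where 100 is the top of the list. It was 81.8, 85.3 and 84.1 with LPS and 87.7, 86.6 and 86.7 with LPS + skatole. Over all genes with a peak the median percentile was 81.9 to 83.3 under DMSO, 83.8 to 85.1 under LPS and 84.7 to 85.3 in LPS + skatole libraries. In the full lists the interferon-stimulated genes ranked below the median gene in every DMSO library, below it in 2 of 3 LPS libraries and above it in every LPS + skatole library. In lists of equal length the mean of the library medians was 72.5, 75.5 and 77.9 in the 3 groups, against 81.8, 79.6 and 76.8 over all genes, so that LPS was then below all genes and LPS + skatole above. The mean number of peaks per gene over the 44 genes was 1.2 ± 0.0946 under DMSO, 1.93 ± 0.157 under LPS and 2.05 ± 0.159 under LPS + skatole (SD, n = 3 each), against 0.866, 1.07 and 1.21 over all genes.

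**Figure D1:**
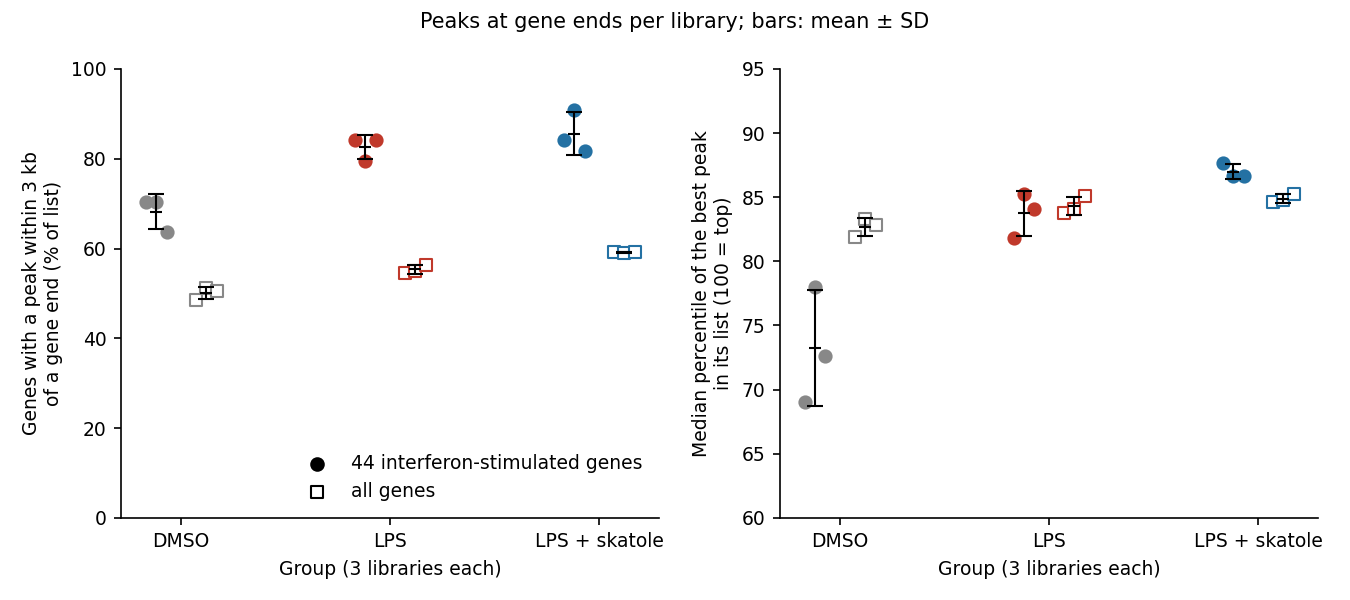
Share of genes with a p65 peak at a gene end (left, % of the list) and median percentile of the best peak in its list (right; the axis starts at 60) in each of 9 libraries, for the 44 interferon-stimulated genes (filled circles) and all genes (open squares), with mean ± SD per group. The share of the 44 genes lay between 63.6% and 70.5% in DMSO libraries and between 79.5% and 90.9% in the other libraries.

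All 44 genes were accounted for. A peak in all 9 libraries was found at 26 genes, a peak in some of the libraries at 16 genes, and no peak in any library at 2 genes, Ifit3 and Iigp1. Between DMSO and LPS, 11 of the 44 genes had a peak in more LPS than DMSO libraries and 0 in fewer, beside 17% and 6.48% of all genes. Between LPS and LPS + skatole, 6 genes, Ifi44, Oasl2, Gbp7, Igtp, Trim30a and Ifi205, had a peak in more LPS + skatole libraries, and 2 genes, Mx1 and Gbp2, in fewer, beside 16.2% and 7.79% of all genes.

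**Figure D2:**
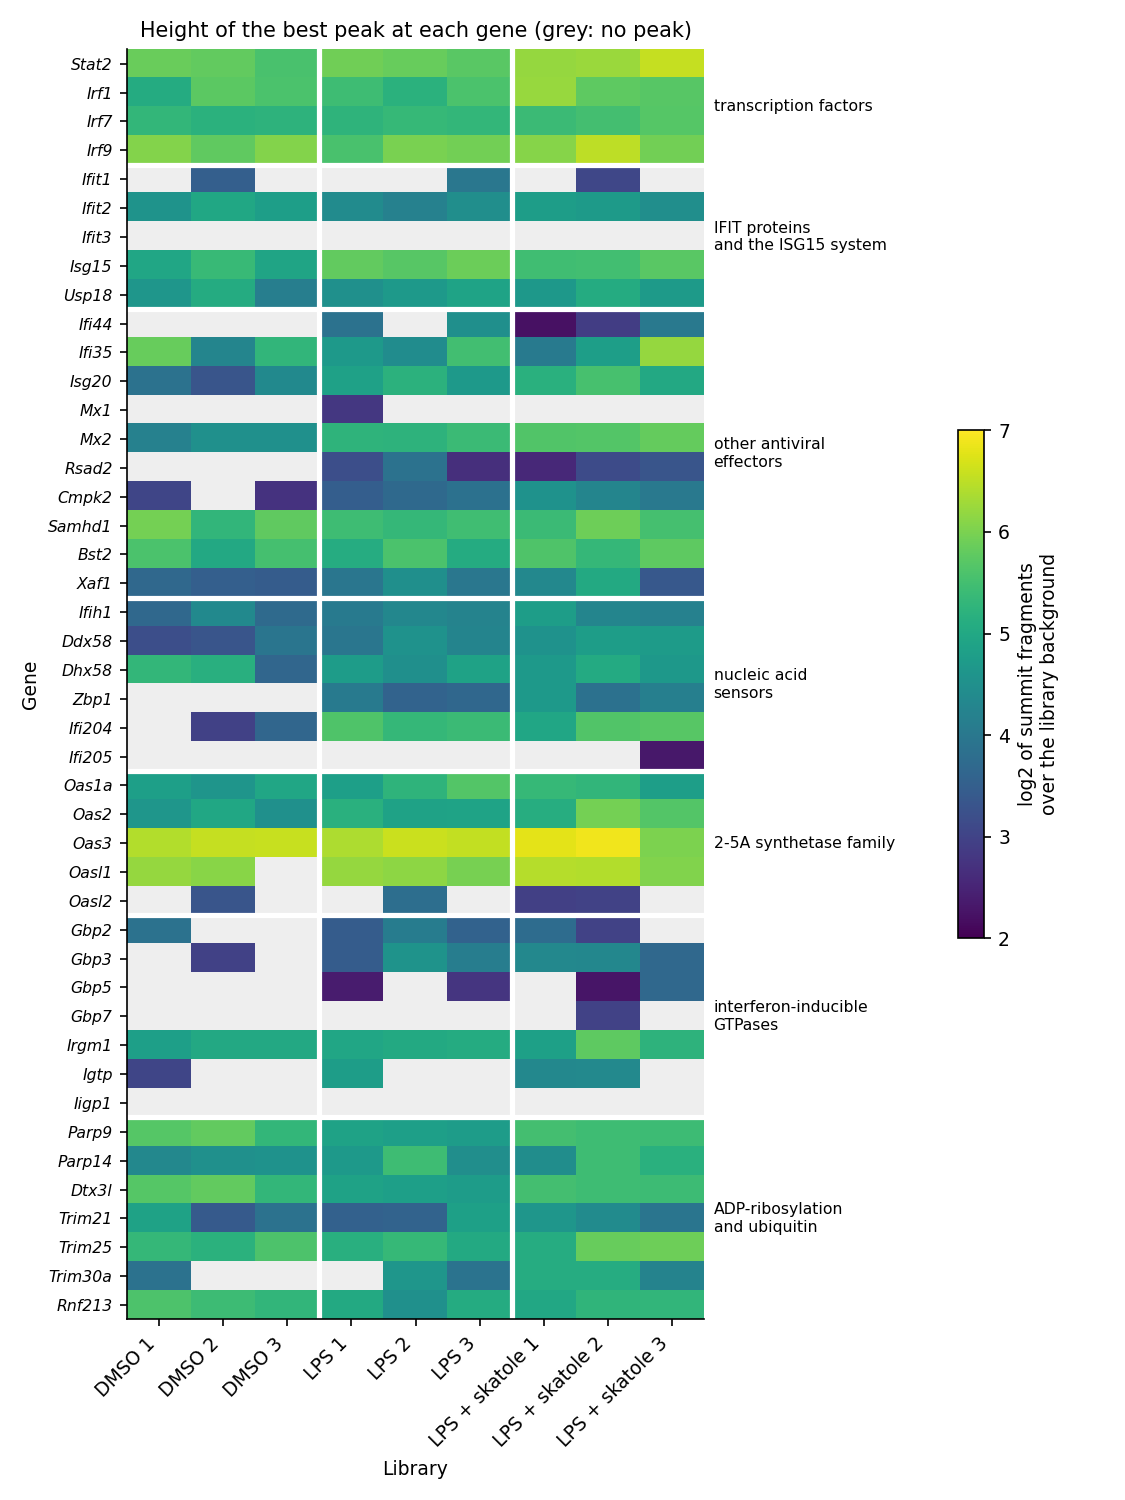
Height of the best p65 peak at each of the 44 genes (rows, grouped by role) in the 9 libraries (columns), as log2 of the summit fragments over the genome background of the library. Grey cells have no peak, which holds for all 9 libraries at Ifit3 and Iigp1 and for all 3 DMSO libraries at Zbp1, Rsad2 and Ifi44.

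Genes with a peak in all libraries of one group and none of another were few. A peak in all LPS and no DMSO library was found at 2 of the 44 genes, Rsad2 and Zbp1, beside 0.973% of all genes. A peak in all LPS + skatole and no DMSO library was found at 3 of the 44 genes, Rsad2, Zbp1 and Ifi44, beside 1.79% of all genes. The other patterns had 0 of the 44 genes each. Their shares over all genes were 0.0914% for DMSO without LPS, 0.457% for LPS + skatole without LPS, 0.0777% for LPS without LPS + skatole and 0.0365% for DMSO without LPS + skatole. For a single gene, 3 libraries against 3 cannot give an exact p-value under 0.1.

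Zbp1 encodes a sensor of Z-form nucleic acids that can start necroptosis. Its summit held 38, 27 and 30 fragments with LPS and 61, 33 and 43 with LPS + skatole, and no DMSO library had a peak. These heights were 12.1 to 16.6 and 14.6 to 26.1 times the background, all above the lowest height that was called under DMSO. The −log10 p of a peak also depends on its local background, so a site of this height could still go uncalled under DMSO. In LPS + skatole replicate 2 the 33 fragments ranked at percentile 11.9 of the list. The most often called region was chr2:173217584-173218585 (mm10), with its median summit 507 bases inside one end of the gene. In LPS + skatole replicate 1 the peak lay instead at chr2:173219467-173220093, 588 bases outside the gene.

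Rsad2 encodes viperin, a radical SAM enzyme that restricts virus replication. Its summits held 21, 33 and 15 fragments under LPS and 14, 20 and 24 in LPS + skatole libraries. These heights were 6.40 to 14.8 and 5.98 to 10.0 times the background, and the lowest of each group was below the lowest height that was called in any DMSO library. The peaks lay at the 3′ side of the gene, the most often called region being chr12:26441157-26442746, with the median summit 14576 bases downstream of the annotated start. Rsad2 lost the pattern with a window of 1 kb, in lists of equal length, at a −log10 p of at least 10 and at summits of at least 8 times the background. Zbp1 kept the pattern of LPS without DMSO in each of these, and lost that of LPS + skatole without DMSO in lists of equal length and at a −log10 p of at least 10.

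Ifi44 encodes an interferon-induced cytoplasmic protein. Its summits held 34 and 53 fragments in LPS replicates 1 and 3 and none was called in replicate 2. In LPS + skatole libraries they held 11, 17 and 39 fragments, or 4.70, 7.52 and 16.3 times the background, the lowest of which was below the lowest height that was called in any DMSO library. Ifi44 lost the pattern in the same alternatives as Rsad2. The region at its start, chr3:151749669-151750093, was called in 2 LPS and 1 LPS + skatole libraries, and the other peaks lay elsewhere at the gene ends.

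For the 26 genes with a peak in all 9 libraries, peak heights were compared with limma over all 8875 genes with such peaks. The scaled height is the number of fragments at the best summit divided by the median over these genes in the same library, so a value of 1 is the median gene. In LPS against DMSO, 1 of the 26 genes, Mx2, rose at an adjusted p under 0.05 and 0 fell, while 0.237% of all genes tested rose and 0.0789% fell. The log2 difference was above 0 at 22 of the 26 genes, with a median of 0.31, against 48.0% of all genes and a median of -0.01. In LPS + skatole against DMSO, which shares its controls with the first comparison, 3 of the 26 genes, Mx2, Isg20 and Ddx58, rose and 0 fell, beside 0.89% and 0.811% of all genes, with a median of 0.38 for the 26 genes and -0.04 for all genes. In LPS + skatole against LPS 0 of the 26 genes and 0% of all genes rose, and 0 of the 26 genes and 0% of all genes fell (limma, smallest adjusted p 0.564 among the 26 genes and 0.0508 among all genes). At an unadjusted p under 0.05, 0 of the 26 genes and 784 of all 8875 genes passed in that comparison. The median log2 difference there was 0.12 for the 26 genes and -0.01 for all genes. The difference was above 0 at 18 of the 26 genes, beside 47.7% of all genes. The single differences ran from -0.42 to 0.45, and their 95% intervals reached from -0.98 to 0.96. These limits come from the genes with the widest intervals, Ifi35 and Trim21. Leaving out 1 library changed which genes were called, as given beside each gene.

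Many of the 26 genes separated the groups without passing the adjusted test. The scaled heights of LPS lay above those of DMSO without overlap at 12 of the 26 genes, beside 7.3% of all genes tested, and below them at 2 genes, Parp9 and Dtx3l, beside 8.38%. Parp9 and Dtx3l have the same best peak and count as 1 measurement. LPS + skatole lay above DMSO at 8 of the 26 genes, beside 8.41% of all genes, and below it at 0, beside 10.9%. LPS + skatole lay above LPS at 4 of the 26 genes, Mx2, Stat2, Parp9 and Dtx3l, beside 6.47%, and below it at 1 gene, Isg15, beside 8.1%. These counts depend on the scale. When heights were divided by the genome background, the median of all genes tested moved to -0.29 in LPS against DMSO, to 0.17 in LPS + skatole against LPS and to -0.13 in LPS + skatole against DMSO. On that scale the LPS against DMSO difference was above 0 at 14 of the 26 genes, beside 16.4% of all genes. Its median was 0.03 over the 26 genes, against -0.29 over all genes. LPS lay above DMSO without overlap at 5 genes, Ddx58, Isg15, Isg20, Mx2 and Xaf1, beside 1.78% of all genes. LPS lay below at 4 genes, Ifit2, Parp9, Dtx3l and Rnf213, beside 29.98%. The calls over all genes in LPS against DMSO on that scale were 18 higher and 248 lower, against 21 and 7 in the main scaling. For LPS + skatole against DMSO they were 62 higher and 150 lower, against 79 and 72. In LPS + skatole against LPS the difference on that scale was above 0 at 24 of the 26 genes, beside 73.0% of all genes, with a median of 0.30 against 0.17 for all genes. LPS + skatole lay above LPS without overlap at 7 of the 26 genes, Parp9 and Dtx3l among them, beside 17.9% of all genes. It lay below LPS at 0 genes, beside 2.51% of all genes.

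**Figure D3:**
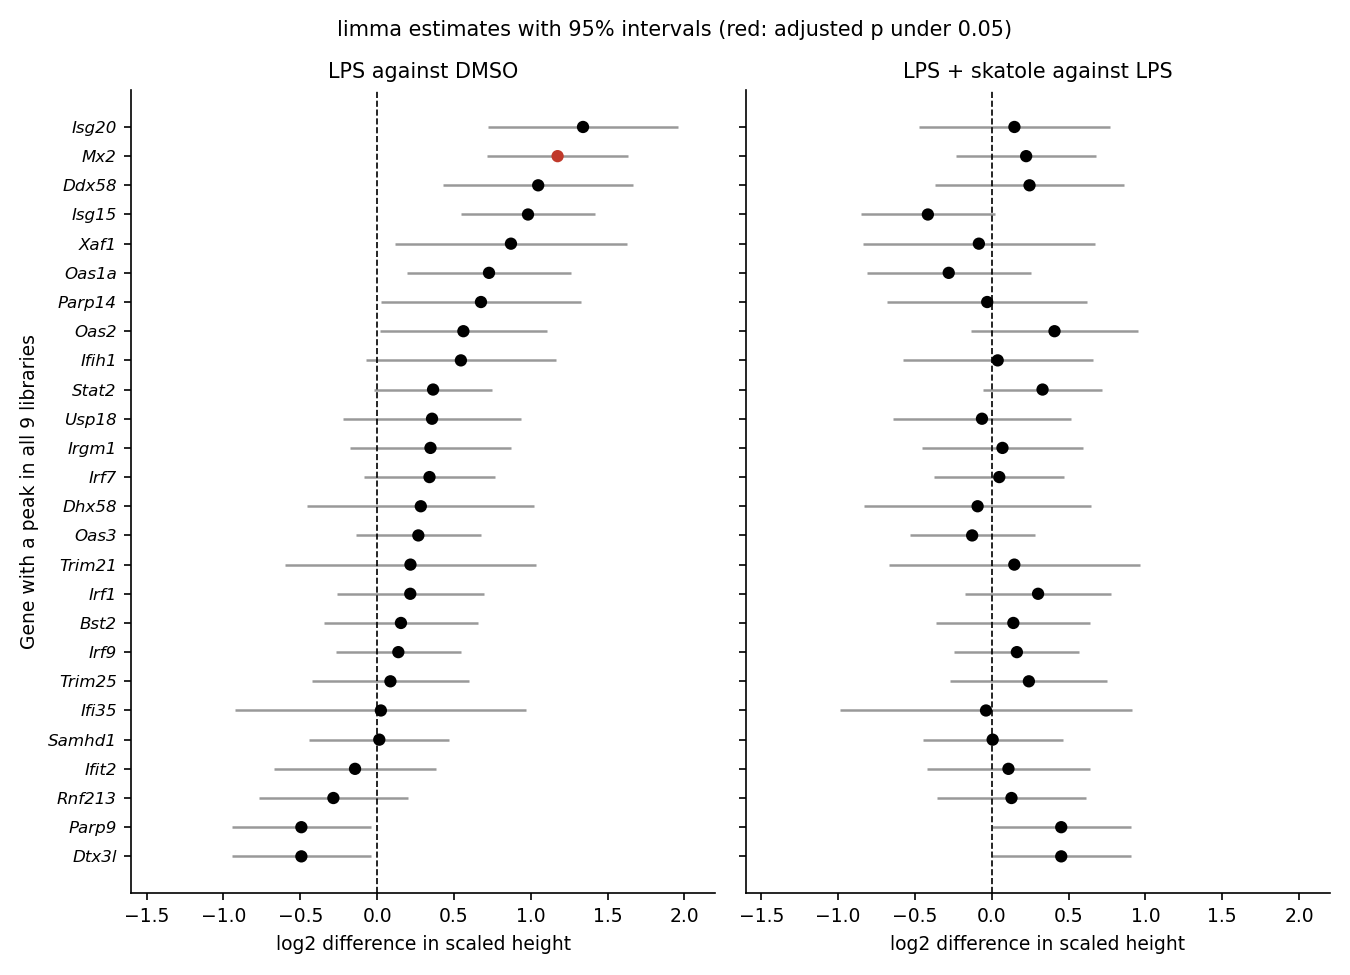
Estimated log2 difference in scaled height (horizontal axis) with its 95% interval for the 26 genes with a peak in all 9 libraries, in LPS against DMSO (left) and LPS + skatole against LPS (right), ordered by the first. The estimate is above 0 at 22 genes on the left and at 18 on the right, and Mx2 alone passes an adjusted p of 0.05 (red).

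Among the transcription factors of the pathway, Stat2, Irf9, Irf1 and Irf7 had a peak in all 9 libraries. The LPS against DMSO difference was positive at 4 of 4 in the main scaling and at 2 of 4, Stat2 and Irf7, relative to the genome background, and none passed the adjusted test. The shares of all genes above 0 were 48.0% and 16.4%. Stat2, which encodes a transcription factor that binds with IRF9, had scaled heights of 1.31, 1.28 and 1.07 under DMSO, 1.70, 1.61 and 1.39 under LPS and 1.79, 1.83 and 2.32 under LPS + skatole. The 3 groups did not overlap, in that order. The log2 difference was 0.36 ± 0.18 (SE) for LPS against DMSO (limma, adjusted p = 0.537), 0.33 ± 0.18 for LPS + skatole against LPS (adjusted p = 0.650) and 0.69 ± 0.18 for LPS + skatole against DMSO (adjusted p = 0.0577). Relative to the genome background the first was 0.09, and LPS and DMSO then overlapped. The region, chr10:128268765-128272307, has its median summit 43 bases before the Stat2 start, in the window printed above, and the best peak also lay within 3 kb of an end of Apof in 9 of 9 libraries. A second region, chr10:128272736-128273602, lay 2660 bases downstream of the start and was called in all 3 LPS libraries, with 19, 19 and 24 fragments, and in no library of the other groups.

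Irf9, which encodes the DNA-binding partner of STAT2, had scaled heights of 1.52, 1.26 and 1.52 under DMSO, 1.33, 1.80 and 1.62 under LPS and 1.67, 2.18 and 1.5 under LPS + skatole. The groups overlapped, and the LPS against DMSO difference was 0.14 ± 0.19 on the log2 scale (limma, adjusted p = 0.888), with a value of -0.14 relative to the genome background. The region, chr14:55603436-55605759, lies over the Irf9 start and is also within 3 kb of an end of Rnf31.

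Irf1, a factor that responds to interferon-γ and NF-κB, had scaled heights of 0.771, 1.23 and 1.08 under DMSO, 1.23, 1.03 and 1.27 under LPS and 1.83, 1.30 and 1.27 under LPS + skatole. DMSO and LPS overlapped, and every LPS + skatole library lay above every DMSO library. The log2 difference was 0.22 ± 0.23 for LPS against DMSO (limma, adjusted p = 0.832) and 0.52 ± 0.23 for LPS + skatole against DMSO (adjusted p = 0.271), and the first became -0.06 relative to the genome background. On that scale DMSO and LPS + skatole overlapped, at 53.6 times the background in DMSO replicate 2 and 51.8 times in LPS + skatole replicate 3. The region at the Irf1 start was chr11:53768230-53771744.

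Irf7, the factor that amplifies type I interferon production, had scaled heights of 0.896, 0.836 and 0.850 under DMSO, 1.07, 1.15 and 1.04 under LPS and 1.04, 1.1 and 1.26 under LPS + skatole. DMSO lay below both other groups without overlap, and LPS and LPS + skatole overlapped. The difference between LPS and DMSO was 0.34 ± 0.20 on the log2 scale (limma, adjusted p = 0.614) and that between LPS + skatole and LPS was 0.05 ± 0.20 (adjusted p = 0.965). Relative to the genome background the first was 0.06, and LPS and DMSO then overlapped. By rank within its list LPS did not lie above DMSO. The highest percentile was 85.6, 83.9 and 85.5 under DMSO and 55.4, 62.3 and 85.4 under LPS. The tallest summit lay at -2717, 989 and -2717 bases from the start under DMSO and at 49, -29 and -44 under LPS. The heights of these groups thus come from different sites. The best peak also lay within 3 kb of an end of Cdhr5 in 9 of 9 libraries. The gene had 2 regions that were called in every library, chr7:141264736-141267084 over the start and chr7:141268728-141270029 at -2651 bases from the start, where negative is upstream. At the start region the summit held 36, 51 and 30 fragments under DMSO, 87, 91 and 93 under LPS and 100, 74 and 123 under LPS + skatole. At the upstream region it held 43, 48 and 51, then 59, 48 and 89, then 79, 103 and 108 fragments, all before any scaling for depth.

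**Figure D4:**
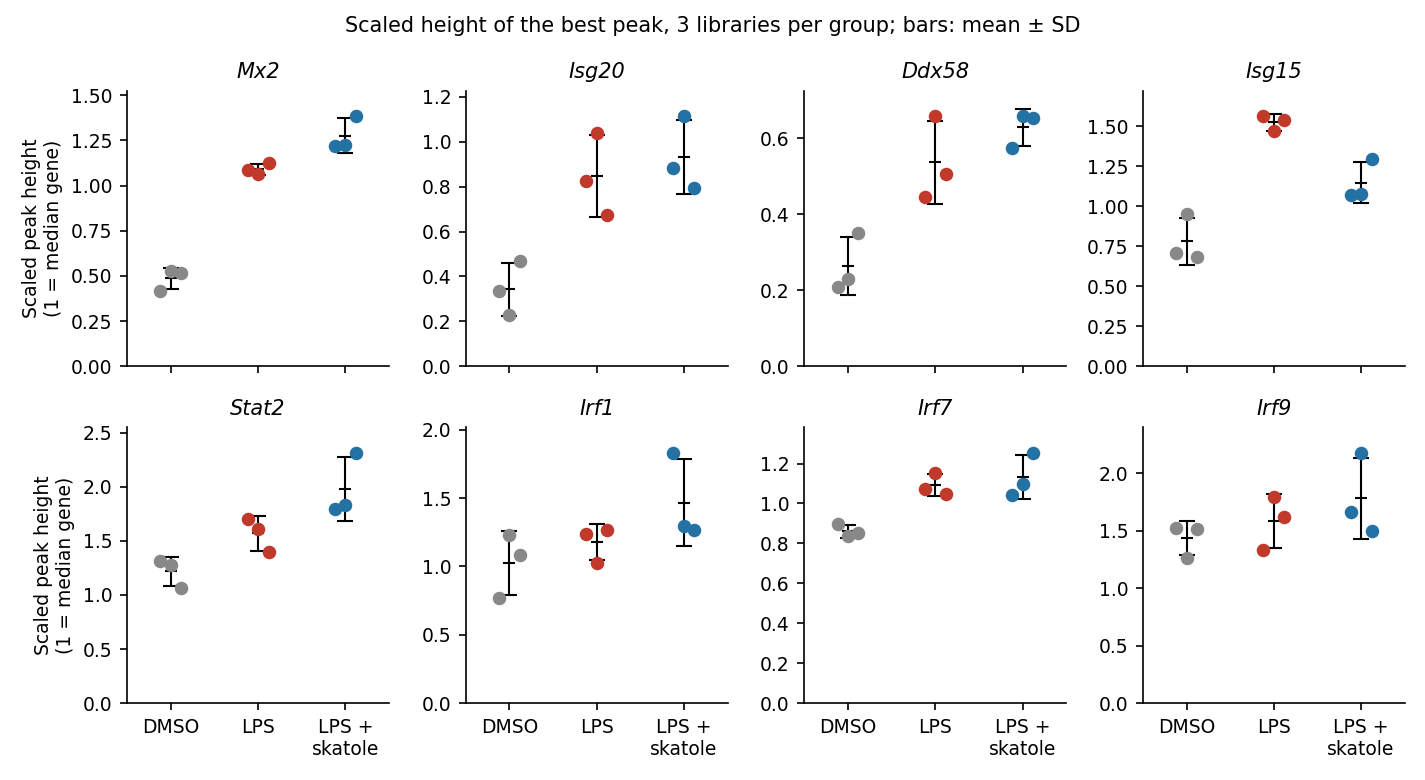
Scaled height of the best p65 peak (vertical axis, 1 is the median gene, each panel with its own scale from 0) in 3 libraries of each group for 8 genes, with mean ± SD. DMSO libraries lie below LPS libraries without overlap at Mx2, Isg20, Ddx58, Isg15, Stat2 and Irf7, and overlap them at Irf1 and Irf9.

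Among the nucleic acid sensors, Ddx58, Ifih1 and Dhx58 had a peak in all 9 libraries, Zbp1 and Ifi204 in some, and Ifi205 in 1 LPS + skatole library. The LPS against DMSO difference was positive at 3 of 3 tested sensors in both scalings, beside 48.0% and 16.4% of all genes. Ddx58 encodes RIG-I, the sensor of uncapped viral RNA. Its scaled heights were 0.208, 0.230 and 0.350 under DMSO, 0.444, 0.658 and 0.506 under LPS and 0.573, 0.660 and 0.653 under LPS + skatole. Every treated library lay above every DMSO library, and the treated groups overlapped. The LPS + skatole level was 2.45-fold the DMSO level, a log2 difference of 1.29 ± 0.29 (limma, adjusted p = 0.0301). This call was lost without DMSO replicate 1, DMSO replicate 2 or any single LPS + skatole library, with adjusted p of 0.0577 to 0.112, and in a fit of these 6 libraries alone (adjusted p = 0.0535). For LPS against DMSO the log2 difference was 1.05 ± 0.29 (adjusted p = 0.208). The region, chr4:40238121-40241460, spans the start, with the median summit 535 bases downstream of it.

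Ifih1, which encodes the long RNA sensor MDA5, had a log2 difference of 0.54 ± 0.29 for LPS against DMSO (limma, adjusted p = 0.579). Dhx58, which encodes the regulator LGP2, had one of 0.28 ± 0.35 (adjusted p = 0.868), and its best peak also lay at Kat2a in 9 of 9 libraries. Neither separated the groups. Ifi204, an AIM2-like DNA sensor gene, was outside the fit because DMSO replicate 1 had no peak, and it is described because of its values. Its summits held 11 and 17 fragments in DMSO replicates 2 and 3, 113, 89 and 99 under LPS and 73, 113 and 124 in LPS + skatole libraries. Relative to the background this was 7.87 and 12.5 under DMSO, 40.0 to 49.2 under LPS and 31.2 to 51.8 under LPS + skatole. The treated libraries all lay above the DMSO libraries with a peak, and the treated groups overlapped. It passed the filter of the fit with floors imputed through its treated libraries, so its call there supports nothing. The region was chr1:173765799-173767806, with its median summit 16 bases from one end of the gene.

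Of the IFIT and ISG15 genes, Ifit2, Isg15 and Usp18 had a peak in all 9 libraries, Ifit1 in 3 libraries and Ifit3 in none. Isg15 encodes the ubiquitin-like modifier ISG15. Its scaled heights were 0.708, 0.951 and 0.683 under DMSO, 1.57, 1.47 and 1.54 under LPS and 1.07, 1.07 and 1.30 under LPS + skatole. The 3 groups did not overlap, with LPS + skatole between the other two. The log2 difference was 0.98 ± 0.21 between LPS and DMSO (limma, adjusted p = 0.0503) and -0.42 ± 0.21 between LPS + skatole and LPS (adjusted p = 0.596, 95% interval -0.85 to 0.02). Relative to the genome background the latter was -0.23, and LPS + skatole and LPS then overlapped. The first passed the threshold without DMSO replicate 2, with summits of at least 8 times the background, with the summit in the window and with summed summits. This best peak, at chr4:156196863-156199093, lay at -461 bases from the annotated start of the neighbour Agrn, where negative is upstream, and 2869 bases downstream of the Isg15 start, and was counted for both genes. A second region, chr4:156200668-156201660, lay at the Isg15 start, with its median summit 93 bases upstream. It was called in DMSO replicate 3 with 17 fragments and in no other DMSO library. In LPS libraries it held 57, 101 and 77 fragments and in LPS + skatole libraries 72, 60 and 47. These counts are not scaled for depth.

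Ifit2, an inhibitor of viral translation, had scaled heights of 0.519 to 0.721 over the 9 libraries, and its log2 difference between LPS and DMSO was -0.14 ± 0.25 (limma, adjusted p = 0.923). Usp18, which encodes the protease that removes ISG15 from proteins, ranged from 0.4 to 0.809, with a difference of 0.36 ± 0.28 (adjusted p = 0.741). At neither did the groups separate on this scale, while Ifit2 was lower with LPS than with DMSO without overlap relative to the genome background.

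Among the other antiviral effectors, Mx2, Isg20, Samhd1, Bst2, Ifi35 and Xaf1 had a peak in all 9 libraries. The LPS against DMSO difference was positive at 6 of 6 in the main scaling and at 3 of 6, Mx2, Isg20 and Xaf1, relative to the genome background. The shares of all genes above 0 were 48.0% and 16.4%. Mx2 belongs to the Mx family of dynamin-like antiviral GTPases and is annotated as a transcribed pseudogene in the table used here. Its scaled heights were 0.417, 0.525 and 0.517 under DMSO, 1.09, 1.06 and 1.12 under LPS and 1.22, 1.22 and 1.39 under LPS + skatole. The 3 groups did not overlap, in that order. LPS was 2.26-fold the DMSO level, a log2 difference of 1.17 ± 0.22 (limma, adjusted p = 0.0187). LPS + skatole was 2.64-fold the DMSO level, a log2 difference of 1.40 ± 0.22 (adjusted p = 0.00309), and differed from LPS by 0.22 ± 0.22 (adjusted p = 0.814). The call for LPS against DMSO was lost without DMSO replicate 1 or any single LPS library, with adjusted p of 0.0765 to 0.0980, and in a fit of these 6 libraries alone (adjusted p = 0.0572). The call for LPS + skatole against DMSO held without any single library. The region, chr16:97533261-97536739, overlaps one end of the gene, with its median summit 520 bases outside.

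Isg20 encodes an exonuclease that degrades single-stranded RNA. Its scaled heights were 0.333, 0.230 and 0.467 under DMSO, 0.827, 1.04 and 0.674 under LPS and 0.885, 1.12 and 0.796 under LPS + skatole. DMSO lay below both treated groups without overlap, and the treated groups overlapped. The LPS + skatole level was 2.80-fold the DMSO level, a log2 difference of 1.49 ± 0.29 (limma, adjusted p = 0.0139), a call that was lost without DMSO replicate 2 or LPS + skatole replicate 2 (adjusted p of 0.0644 and 0.0638). LPS against DMSO gave the largest difference of the 26 genes, 1.34 ± 0.29 (adjusted p = 0.0638), which passed the threshold without DMSO replicate 3 (adjusted p = 0.0286). The region, chr7:78912397-78915374, covers the start. The best summit lay at -814, -955 and -811 bases from the start in the LPS libraries, at 185, -44 and -655 in the DMSO libraries and at 63, 16 and -1615 with LPS + skatole, and the best peak also lay within 3 kb of an end of Aen in 9 of 9 libraries.

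Xaf1, a pro-apoptotic gene, had scaled heights of 0.292, 0.262 and 0.25 under DMSO and 0.444, 0.633 and 0.416 under LPS, with 0.490, 0.787 and 0.255 under LPS + skatole. Its log2 difference between LPS and DMSO was 0.87 ± 0.36 (limma, adjusted p = 0.434). Samhd1, which encodes a dNTP hydrolase, and Bst2, which encodes tetherin, had differences of 0.01 ± 0.22 and 0.15 ± 0.24 (adjusted p = 0.992 and 0.905). Ifi35 varied from 0.406 to 1.81 within the LPS + skatole group alone. Cmpk2, the mitochondrial nucleotide kinase gene next to Rsad2, stood at 8.26 and 6.62 times the background in DMSO replicates 1 and 3, with no peak in replicate 2, at 11.3, 13.0 and 14.5 times with LPS and at 23.5, 19.5 and 16.3 times with LPS + skatole. Mx1 had a peak in LPS replicate 1 and in no other library.

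In the 2-5A synthetase family, whose products activate the antiviral RNase L, Oas1a, Oas2 and Oas3 had a peak in all 9 libraries, Oasl1 in 8 and Oasl2 in 4. The LPS against DMSO difference was positive at 3 of 3 in the main scaling and at 2 of 3 relative to the genome background, where Oas3 was below 0. The shares of all genes above 0 were 48.0% and 16.4%. Oas3 had the highest mean scaled height of the 26 genes in each group, with values of 1.96, 2.16 and 2.17 under DMSO, 2.38, 2.73 and 2.46 under LPS and 2.72, 2.86 and 1.58 under LPS + skatole. Its log2 difference between LPS and DMSO was 0.27 ± 0.19 (limma, adjusted p = 0.715). Oas1a had heights of 0.646, 0.557 and 0.700 under DMSO and 0.802, 1.08 and 1.33 under LPS, a difference of 0.73 ± 0.25 (adjusted p = 0.346). Under LPS + skatole the heights of Oas1a were 1, 0.936 and 0.684, which overlapped both other groups. The best peak of Oas2 also lay at an end of Oas3 in 8 of 9 libraries. Oas2 had heights of 0.562, 0.721 and 0.517 under DMSO, 1.02, 0.835 and 0.787 under LPS and 0.844, 1.5 and 1.24 under LPS + skatole. Its log2 difference between LPS + skatole and DMSO was 0.97 ± 0.26 (adjusted p = 0.0604), which passed the threshold without LPS + skatole replicate 1. Oasl1 stood at 74.3 and 69.4 times the background in DMSO replicates 1 and 2, with no peak in replicate 3, at 74.1, 71.4 and 62.7 times with LPS and at 87.2, 85.4 and 66.0 times with LPS + skatole, so that DMSO and LPS overlapped.

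The interferon-inducible GTPases attack vacuoles of intracellular microbes. A peak in all 3 DMSO libraries was found at 1 of the 7 genes, Irgm1, in all 3 LPS libraries at 3 genes and in all 3 LPS + skatole libraries at 2 genes. Irgm1 had scaled heights of 0.646 to 0.738 under DMSO, 0.877 to 0.924 under LPS and 0.698 to 1.30 under LPS + skatole, and a log2 difference between LPS and DMSO of 0.35 ± 0.25 (limma, adjusted p = 0.714). Gbp3 held 11 fragments in DMSO replicate 2 and had no peak in the other DMSO libraries. Its height was 7.87 times the background there, 10.9, 23.8 and 17.5 times with LPS and 20.1, 19.9 and 12.9 times with LPS + skatole. The best peak of Gbp2 also lay at its neighbour Gbp2b in each of the 6 libraries with a peak. Gbp genes are close paralogues, so fragments that map to several of them may be placed uncertainly.

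Of the ADP-ribosylation and ubiquitin genes, 6 of 7 had a peak in all 9 libraries and Trim30a in 6. The LPS against DMSO difference was positive at 3 of 6 in the main scaling and at 1 of 6, Parp14, relative to the genome background, with none past the adjusted test. The shares of all genes above 0 were 48.0% and 16.4%. The divergent pair Parp9 and Dtx3l, whose products form one ADP-ribosylation and ubiquitin ligase complex, shared a best peak in 9 of 9 libraries at chr16:35936913-35940423. Its scaled heights were 1.17, 1.28 and 0.900 under DMSO, 0.840, 0.797 and 0.719 under LPS and 1.11, 1.05 and 1.05 under LPS + skatole. LPS lay below both other groups without overlap, unlike the 12 genes at which LPS lay above DMSO. The log2 difference was -0.49 ± 0.22 between LPS and DMSO (limma, adjusted p = 0.457; -0.77 ± 0.21 and 0.0557 relative to the genome background) and 0.45 ± 0.22 between LPS + skatole and LPS (adjusted p = 0.564). Parp14 had a difference of 0.68 ± 0.31 for LPS against DMSO (adjusted p = 0.495). Rnf213, a giant ubiquitin ligase gene, had one of -0.28 ± 0.23 (adjusted p = 0.759).

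Most best peaks lay at the start of the gene. Among the 33 genes with an annotated start and a peak, the median distance of the best summit from the nearest start was within 500 bases at 20 genes. Of 243 best peaks over all libraries, 140, or 57.6%, had a summit within 500 bases of a start, and 150, or 61.7%, covered a start. By group, the share within 500 bases was 60% of 70 peaks under DMSO, 57.1% of 84 under LPS and 56.2% of 89 under LPS + skatole. A majority of the best peaks was therefore near a start in each group. Peaks were assigned only within 3 kb of a gene end, and the same genes recur across libraries. No share over all genes is given, so this is not shown to be particular to these genes. The best peak of Oas3 lay 1679 to 1940 bases downstream of the start in every library, and that of Oas1a within 549 bases. At 9 of the 42 genes with a peak, the best peak also lay at the end of another gene in every library with a peak, and at 28 genes it lay at no other gene.

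**Figure D5:**
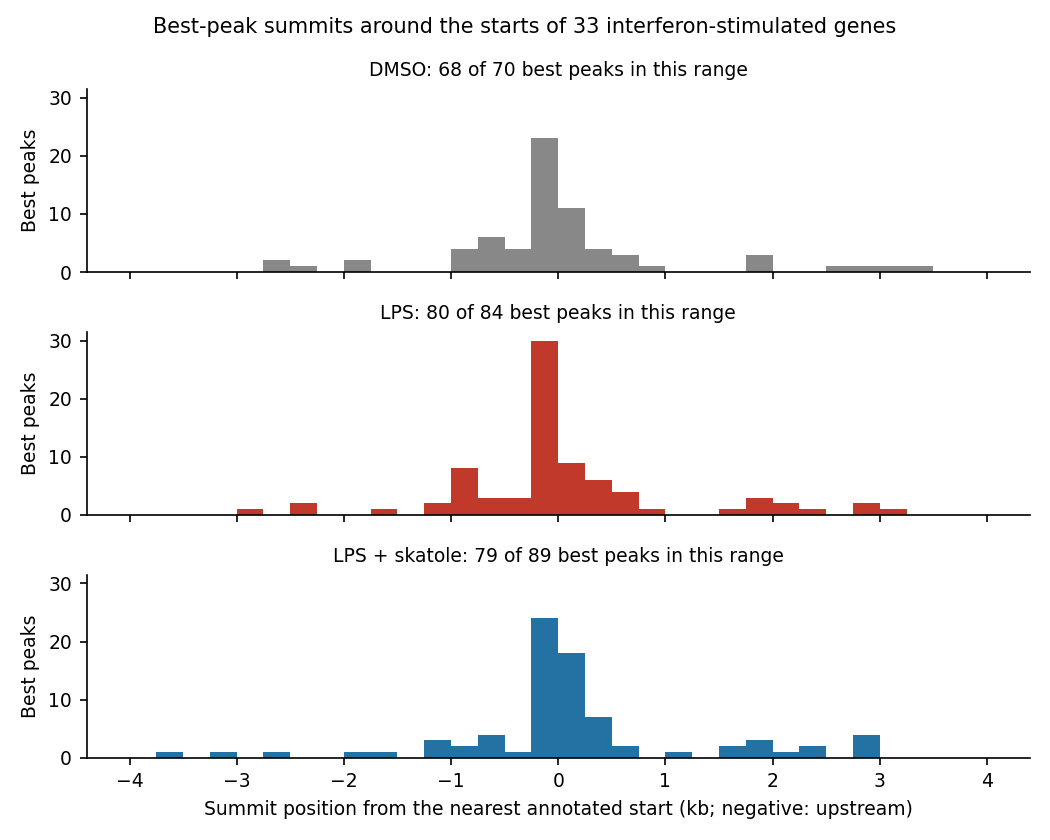
Number of best peaks (vertical axis) by the position of the summit from the nearest annotated start (horizontal axis, kb, in bins of 0.25 kb; negative is upstream) for 33 interferon-stimulated genes in the 3 libraries of each group. Summits within 4 kb are drawn, which are 68 of 70 under DMSO, 80 of 84 under LPS and 79 of 89 in LPS + skatole libraries, and the highest bars lie next to the start in each group.

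Lists of related genes were read beside the 44 genes. Of 22 genes of interferon production and signalling, 17 had a peak in all 9 libraries, and 1 of these, Socs3, rose in LPS against DMSO and 0 fell. Socs3, a feedback inhibitor of JAK signalling, had scaled heights of 0.604, 0.475 and 0.767 under DMSO, 1.64, 1.62 and 1.56 under LPS and 1.05, 1.12 and 1.26 under LPS + skatole. Its log2 difference was 1.41 ± 0.22 for LPS against DMSO (limma, adjusted p = 0.00588), 0.91 ± 0.22 for LPS + skatole against DMSO (adjusted p = 0.0422, and 0.0559 relative to the genome background) and -0.50 ± 0.22 for LPS + skatole against LPS (adjusted p = 0.530). Tbk1, the kinase that activates IRF3, differed by 0.62 ± 0.23 between LPS and DMSO (adjusted p = 0.402). Ifnb1, which encodes interferon-β, had a peak in 1 LPS library with 11 fragments and in 1 LPS + skatole library with 16 fragments. Over the 17 genes the median log2 difference was 0.12 between LPS and DMSO and -0.10 between LPS + skatole and LPS, with 3 of the 17 above 0 in the latter, beside 47.7% of all genes. Relative to the genome background 13 of the 17 were above 0 there, beside 73.0% of all genes, and the median was 0.09. In LPS against DMSO 8 of the 17 were then above 0, beside 16.4% of all genes, and the median was -0.16. The sign of both medians thus turned with the scale.

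Of the 12 genes of NF-κB subunits and inhibitors, 12 had a peak in all 9 libraries, and 0 passed the adjusted test in any of the 3 comparisons (limma, 1 at an unadjusted p under 0.05 in LPS against DMSO, 1 in LPS + skatole against LPS and 0 in LPS + skatole against DMSO). Their best peaks ranked higher than those of the 44 genes, where the mean of the library medians was percentile 94.2 under DMSO, 96.7 under LPS and 95.5 under LPS + skatole. Nfkbia, which encodes the inhibitor IκBα, had mean scaled heights of 2.35 ± 0.240 under DMSO, 2.42 ± 0.380 under LPS and 1.90 ± 0.214 under LPS + skatole (SD, n = 3 each). Its log2 difference between LPS + skatole and LPS was -0.35 ± 0.16 (adjusted p = 0.568). Rela, which encodes p65, differed by 0.17 ± 0.22 between LPS and DMSO (adjusted p = 0.877). The median log2 difference of the 12 genes was 0.05 between LPS and DMSO and -0.18 between LPS + skatole and LPS. The difference was above 0 at 7 and 1 of the 12, beside 48.0% and 47.7% of all genes. Relative to the genome background the medians were -0.23 and 0.01, with 2 and 7 of the 12 above 0. The shares of all genes above 0 were then 16.4% and 73.0%. The sign of both medians thus turned with the scale.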

How the data were processed

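CUT&Tag peak lists of 9 libraries were used. Per the labels the build was mm10, and the submitters' processing notes name fastp 0.20.1, HISAT2 2.1.0 and StringTie 2.0 without a role. The peak caller, its control and the treatment of duplicates are not given in the sources used here. The authors deposited 1 list per library with a score (10 times the −log10 p, cut to a whole number), a fold (a ratio of summit to local background), −log10 p and −log10 q values. The score and −log10 q were not used. Summit fragments were recovered from the deposited fold and −log10 p under a Poisson model. They came out whole, within 0.05, for 99.99% or more of the peaks in each list. Depth is known only as the genome background, and recovery was tested on simulated data.

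The strongest summit at a gene end was taken per gene. Log2 summit counts were centred on the library median and compared with limma 3.58.1 (R 4.3.3, trended variance, Benjamini-Hochberg over 8875 genes, adjusted p under 0.05), with all 9 libraries in one fit. Genes came from the RefSeq GRCm38.p6 table and all 44 genes matched it, with 2 genes of the signalling list matched by an older symbol. Alternatives were another scaling, imputed floors, height and p filters, a window of 1 kb, the summit in the window, summed summits, lists of equal length, a replicate block, and leaving out each library. The filter on summits of at least 8 times the background for shares, ranks and patterns was added after seeing the data.

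Values in every library were given for the transcription factors, for genes past the adjusted p in any comparison and for genes with a peak in all libraries of one group and none of another, with promoters for up to 6 of them. Promoters were kept only where the strongest region overlapped the window. Other genes given with values in every library, such as Ifi204, Isg15 and Oas2, were chosen after their values were seen. The genes, the lists and the tests were chosen with earlier results of these data known.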

Additional observations from a re-analysis of the deposited data

How the results depend on the processing

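Depth limits the DMSO libraries most, since they are the shallowest, and a level without antibody was not analysed here. In LPS against DMSO, 1 of the 26 genes was higher. This count was 2 of 39 genes tested with floors imputed (Mx2 and Ifi204, the latter with an imputed DMSO value and through its treated libraries), and 2 (Mx2 and Isg15) with summits of at least 8 times the background and with the summit in the window, 1 (Isg15 in place of Mx2) with summed summits, 0 in a fit of the 6 libraries alone, and 0 to 2 when 1 library was left out. Over all genes 28 were called, against 266 when scaled to the background, 54 with floors imputed, 14 with a window of 1 kb, 44 with summed summits and 13 to 33 when 1 library was left out (15 without DMSO replicate 1 and 13 without LPS replicate 1). In LPS + skatole against LPS 0 genes were called, against 6, 1, 3, 2 and 1 when scaled to the background, with floors imputed, at 8 times the background, with the summit in the window and in a fit of the 6 libraries alone, and 0 to 9 when 1 library was left out (9, 3 and 1 without LPS + skatole replicates 1, 2 and 3, and 1 without DMSO replicate 2). No interferon-stimulated gene was among them. In LPS + skatole against DMSO, leaving out 1 library gave 1 to 3 of the 26 genes and 78 to 127 of all genes, against 3 and 151 (89 and 78 without DMSO replicates 1 and 2, and 94 without LPS + skatole replicate 3). Isg20 and Ddx58 were no longer called in this comparison with floors imputed (adjusted p of 0.0604 and 0.1), and Isg20 with summed summits (0.192). Isg15 and Oas3 were called in it with summed summits, and Ifi204, with the same limit, with floors imputed. For Mx2 in LPS against DMSO, summed summits gave a log2 difference of 1.44 (adjusted p = 0.0641).

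The share of the 44 genes with a peak was 59.1% under DMSO, 79.5% under LPS and 78.8% in LPS + skatole with a window of 1 kb. Over all genes it was 43.3%, 47.5% and 49.9%. At a −log10 p of at least 10 it was 57.6%, 78.8% and 76.5%, against 44.7%, 50.3% and 53.3% over all genes. In lists of equal length it was 78.0% under LPS and 72.7% under LPS + skatole, against 49.4% and 48.6% over all genes. At 8 times the background, an alternative added after seeing the data, it was 79.5% and 78.8%, against 51.2% and 53.7% over all genes. The median percentile of the best peak was 63.5, 80.5 and 84.1 in the 3 groups with a window of 1 kb. It was 75.5 and 77.9 under LPS and LPS + skatole in lists of equal length, 77.1 and 83.6 at a −log10 p of at least 10, 76.7 and 82.8 at 8 times the background, and 86.2 in LPS + skatole with the summit in the window. Of the genes with a peak in all LPS and no DMSO library, 1 was left with a window of 1 kb and 1 in lists of equal length, 4 (Mx2, Gbp3, Cmpk2 and Zbp1) were found at a −log10 p of at least 10, 2 (Gbp3 and Zbp1) at 8 times the background, and 2 to 4 when 1 library was left out (4 without LPS replicate 2). Over all genes this pattern had shares of 0.745% at 1 kb, 0.457% in lists of equal length, 1.14% at this −log10 p and 0.566% at 8 times the background. For LPS + skatole without DMSO, 1 was left with a window of 1 kb and 0 in lists of equal length. The 3 at a −log10 p of at least 10 were Mx2, Gbp3 and Cmpk2, and the 2 at 8 times the background were Gbp3 and Zbp1. The shares over all genes were 1.17%, 0.475%, 1.84% and 1.08% in the same order of settings. The cause of these changes was not tested.

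With a replicate block, 24, 0 and 117 genes were called in LPS against DMSO, LPS + skatole against LPS and LPS + skatole against DMSO, and the same 1, 0 and 3 interferon-stimulated genes were among them. The replicate numbers are not stated to pair the libraries, and same-numbered libraries deviated together by a correlation of -0.03 to 0.02 over 9 pairs of libraries.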
